A study of Rattus norvegicus with 2 samples.

Results

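Phosphoglycerate mutase, enolase, aldolase, lactate dehydrogenase and hexokinase each exist in several isoforms that are made from different genes, and 10 of these genes were followed here in the hearts of Dahl salt-sensitive rats. They were Pgam2 and Pgam1, Eno3, Eno1 and Eno2, Aldoa and Aldoc, Ldhb and Ldha, and Hk2. Every probe set whose platform annotation carried one of these symbols was taken, which gave 14 of the 8799 probe sets on the arrays and 8 of the 10 genes. Eno2 had no probe set under its symbol, and Ldha shared its 1 probe set with Ldhal1, so both lacked one of their own. One array held heart RNA of male rats on the high-salt diet, labelled as having chronic heart failure. The other held heart RNA of males on the low-salt diet, with no condition given. Both groups carried the same Dahl salt-sensitive background, an inbred line that becomes hypertensive on salt, and both were 17 weeks old. The labels do not say whether each RNA came from a single animal or several, nor which part of the organ was sampled.

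Glycolysis breaks glucose down to pyruvate in the cytosol, and lactate dehydrogenase then exchanges pyruvate and lactate. Phosphoglycerate mutase and enolase catalyse neighbouring steps late in the pathway and work as dimers. Adult striated muscle makes a muscle subunit of each, encoded by Pgam2 and Eno3, whereas most other cells and the embryonic heart rely on the widespread subunits encoded by Pgam1 and Eno1. Aldolase A, from Aldoa, is the muscle form but is also found in many other cells, and aldolase C, from Aldoc, is typical of brain. Ldhb encodes the subunit that predominates in heart and Ldha the one that predominates in skeletal muscle, so this pair does not set muscle against widespread expression. Hk2 encodes the hexokinase of insulin-responsive muscle and fat.

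The start regions of the genes that read lower in the high-salt heart (Pgam2 and Eno3) and of those that read higher (Pgam1 and Eno1) are shown because each enzyme's isoforms went in opposite directions. The sequences are those of RefSeq on build GRCr8, 5′ to 3′ on the gene's strand, from 250 bases before to 50 bases after the annotated start. Capitals mark the hypoxia response cores ACGTG and GCGTG and the TATA box TATAAA, on either strand. Pgam2 lies at chr14:84897825-84898124 on the minus strand and Eno3 at chr10:55868936-55869235 on the plus strand. Pgam1 lies at chr1:250672902-250673201 on the plus strand. Eno1 has 2 annotated starts on the plus strand, at chr5:166002617-166002916 and at chr5:166003111-166003410.
Pgam2: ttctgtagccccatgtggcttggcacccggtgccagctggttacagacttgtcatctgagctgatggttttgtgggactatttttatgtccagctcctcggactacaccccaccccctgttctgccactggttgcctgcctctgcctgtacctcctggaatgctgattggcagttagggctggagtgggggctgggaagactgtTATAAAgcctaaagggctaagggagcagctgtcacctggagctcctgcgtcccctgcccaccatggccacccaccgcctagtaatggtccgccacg
Eno3: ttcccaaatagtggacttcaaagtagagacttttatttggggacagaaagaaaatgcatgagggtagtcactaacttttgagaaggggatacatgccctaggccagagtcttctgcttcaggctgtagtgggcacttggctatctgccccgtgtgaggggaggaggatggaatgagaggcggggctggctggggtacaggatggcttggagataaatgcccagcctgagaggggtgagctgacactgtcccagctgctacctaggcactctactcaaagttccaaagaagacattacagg
Pgam1: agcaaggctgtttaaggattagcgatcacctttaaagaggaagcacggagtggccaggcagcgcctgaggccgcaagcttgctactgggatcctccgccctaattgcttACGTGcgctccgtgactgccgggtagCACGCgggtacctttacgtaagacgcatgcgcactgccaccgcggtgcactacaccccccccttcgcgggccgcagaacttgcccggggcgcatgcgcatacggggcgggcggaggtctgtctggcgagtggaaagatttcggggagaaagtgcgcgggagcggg
Eno1, first start: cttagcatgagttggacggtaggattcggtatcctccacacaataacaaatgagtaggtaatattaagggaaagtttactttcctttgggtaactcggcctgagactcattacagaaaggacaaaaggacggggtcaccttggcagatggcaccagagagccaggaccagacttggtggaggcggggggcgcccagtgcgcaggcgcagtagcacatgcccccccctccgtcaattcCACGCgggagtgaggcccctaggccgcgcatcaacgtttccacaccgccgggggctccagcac
Eno1, second start: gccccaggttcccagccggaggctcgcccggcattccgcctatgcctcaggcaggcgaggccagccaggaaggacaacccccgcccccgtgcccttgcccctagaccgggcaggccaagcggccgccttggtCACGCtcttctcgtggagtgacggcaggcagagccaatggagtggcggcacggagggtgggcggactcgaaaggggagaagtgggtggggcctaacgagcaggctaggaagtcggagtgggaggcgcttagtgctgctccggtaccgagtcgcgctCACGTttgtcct

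The windows of Pgam2 and Eno3 held neither hypoxia core. The Pgam1 window held ACGTG with its first base at position -141 and GCGTG at -115, counted from the start site. The first Eno1 window held GCGTG at -13, and the second held GCGTG at -118 and ACGTG at 39. Of all 33469 windows of this length, 41.6% held at least 1 of these cores, so their presence is common. Among isoforms whose windows are not shown, Ldhb held GCGTG at -103 and an Aldoa window ACGTG at -192, and both genes read slightly lower. The other Aldoa windows and the Hk2 window held neither core. The windows of Aldoc, Ldha and Eno2 each held at least 1 core, and these genes had no ratio of their own. The TATA box letters were found in the Pgam2 window at -46 and in none of the other 4, against 14.2% of all windows. CANNTG, the E-box letters read by myogenic and other helix-loop-helix factors, is not capitalised. It occurred 5 times in the Pgam2 window, 2 times in the Eno3 window, 3 times in the first Eno1 window and in neither the Pgam1 nor the second Eno1 window, against 72.1% of all windows with at least 1. The consensus of the muscle factor MEF2, searched on both strands, matched none of these 5 windows and 3.29% of all windows. Among the isoforms not shown, it matched only an Aldoa window, at -149. GC content was 58.0% for Pgam2 and 51.3% for Eno3, against 63.3% for Pgam1 and 57.3% and 68.3% for the Eno1 windows, with a median of 51.7% over all windows. A match describes letters only, and no binding was measured.

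Intensities were used on the linear scale on which they were deposited. Both arrays had the same 2% trimmed mean of 100.2, and 27.3% of the high-salt and 27.4% of the low-salt values were below 0. The 95th percentile of the size of those negative values, 126.4, served as a noise floor: both values of a probe set were raised to it before dividing high salt by low salt. A ratio with 1 value under the floor is a bound, and a probe set with both values under it was not measured. This floor left 1216 of 4736 genes measured; the quartiles of their log2 ratios lay at -0.28 and 0.22, around a median of -0.04. With 1 array per diet there are no replicates and no test, so each difference compares these 2 arrays. Probe sets sharing a gene, with both values at or above the floor, differed in log2 ratio by an SD of 0.22 (231 genes). This SD holds no variation between animals. In heart tissue, fewer cells of a type and less RNA per cell cannot be told apart.

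The isoforms of phosphoglycerate mutase went in opposite directions. The muscle isoform Pgam2 had 1 probe set, Z17319_at, which read 77.4 under high salt and 221.7 under low salt. Because the high-salt value lay under the noise floor, Pgam2 was lower in the high-salt heart by 1.75-fold or more (log2 ratio -0.81). The widespread isoform Pgam1 had 3 probe sets, all above the floor on both arrays and all higher in the high-salt heart. S63233_at read 1425.2 under high salt and 851.6 under low salt, a 1.67-fold difference. S63233_g_at, named for the same cDNA, read 1161.7 under high salt and 691.9 under low salt, 1.68-fold higher. The third, rc_AI169417_s_at, read 584.6 under high salt and 315.2 under low salt, 1.85-fold higher. The 3 Pgam1 probe sets therefore had log2 ratios from 0.74 to 0.89, a range narrower than the SD among probe sets of a gene. Different probe sets bind with different strength, so the low-salt readings of 221.7 for Pgam2 and of 315.2 to 851.6 for Pgam1 do not say which transcript was more abundant within a heart.

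**Figure D1:**
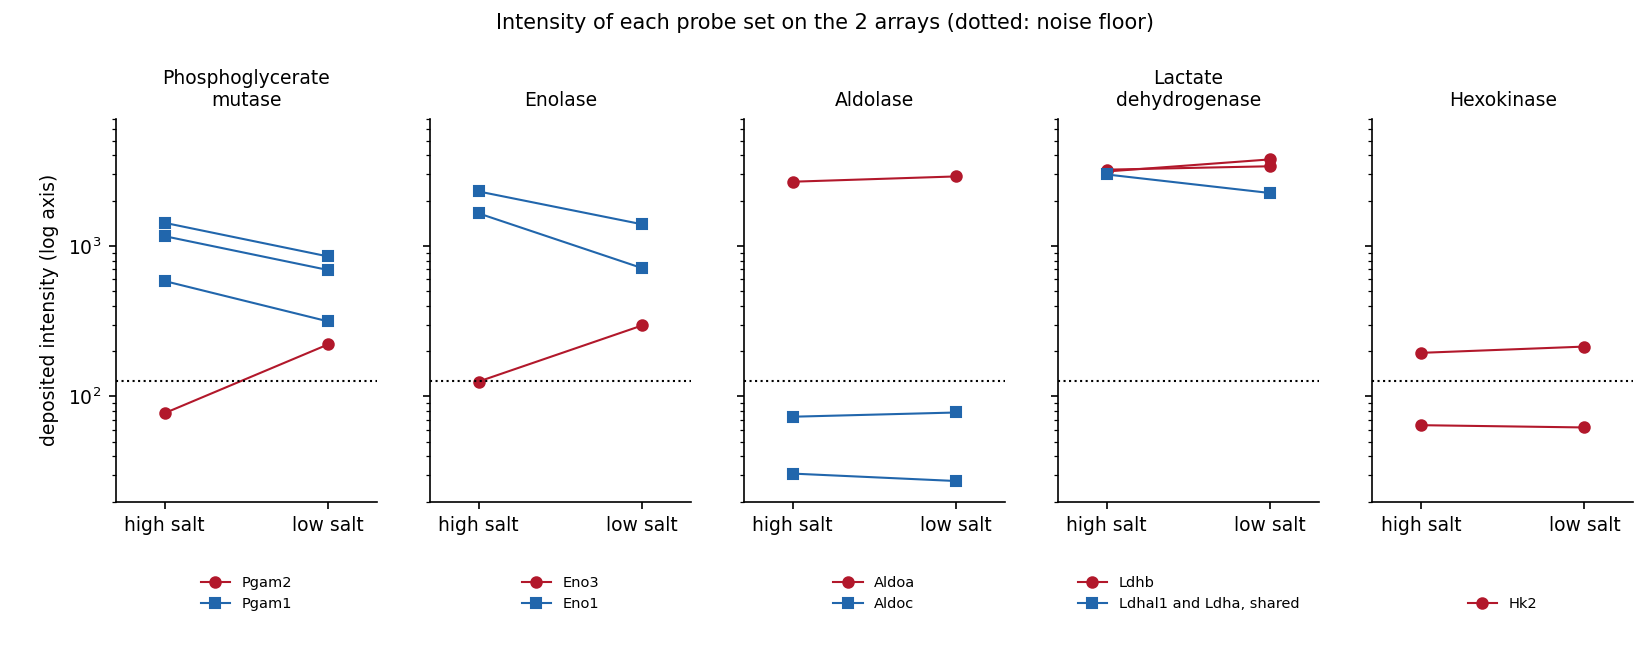
Deposited intensity (log axis) of every probe set of the isoforms in the high-salt heart (left) and the low-salt heart (right), 1 panel per enzyme; each line joins the 2 readings of 1 probe set and the dotted line is the noise floor of 126.4. The Pgam1 and Eno1 lines slope down to the right, the Pgam2 and Eno3 lines slope up, and the lines of Aldoa, Ldhb and Hk2 are nearly flat.

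Enolase showed the same opposition. The muscle isoform Eno3 had 1 probe set, rc_AA851223_at, at 125.6 under high salt and 296.4 under low salt. The high-salt reading lay just under the noise floor, and Eno3 was at least 2.34-fold lower in the high-salt heart (log2 ratio -1.23). The widespread isoform Eno1 was higher in the high-salt heart in both of its probe sets. X02610_g_at, the brighter one, read 2302.4 under high salt and 1392.8 under low salt, 1.65-fold higher. X02610_at read 1646.3 under high salt and 711.9 under low salt, 2.31-fold higher, so the size of the Eno1 difference depended on the probe set while its direction did not. The neuronal isoform Eno2 is not analysed here.

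Aldolase, lactate dehydrogenase and hexokinase differed less. Aldoa, in its 1 probe set, read 2672.8 under high salt and 2898.5 under low salt, 1.08-fold lower. The brain form Aldoc stayed under the noise floor in both of its probe sets, at 73.3 and 30.7 under high salt and at 78.2 and 27.4 under low salt, so no ratio is given. The heart subunit Ldhb was bright: U07181_at read 3126.4 under high salt and 3762.3 under low salt, 1.20-fold lower, and U07181_g_at read 3214.3 under high salt and 3386.0 under low salt, 1.05-fold lower. The probe set shared by Ldha and Ldhal1, M54926_at, read 2985.5 under high salt and 2247.3 under low salt, 1.33-fold higher, and cannot be assigned to either gene. Taking the brighter Ldhb probe set, the lactate dehydrogenase readings shifted by 1.60-fold away from Ldhb (difference of log2 ratios -0.68), with the shared probe set in place of Ldha. With the other Ldhb probe set the shift had the same direction but was smaller. Hk2 read 194.8 under high salt and 214.4 under low salt with M68971_at, 1.10-fold lower, and its second probe set was under the floor at 64.4 under high salt and 62.2 under low salt. The ratios of Aldoa and Hk2 and that of the second Ldhb probe set were smaller than the SD of 0.22, and the brighter Ldhb probe set, at a log2 ratio of -0.27, was just beyond it.

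Of the 10 genes, 7 reached the noise floor on at least 1 array. At 2-fold in their brightest probe sets, 1 of the 7 (Eno3) was lower in the high-salt heart and none was higher, where 1.89% of all 1216 measured genes were lower and 3.54% higher. At 1.5-fold, a threshold named beside the main one, the muscle isoforms Pgam2 and Eno3 were lower and the widespread isoforms Pgam1 and Eno1 higher, 2 of 7 in each direction. Among all measured genes 9.46% were lower and 9.29% higher at 1.5-fold. With 7 genes these shares are a description. Pgam2 and Eno3 entered the measured set through the low-salt array alone. Their ratios could therefore only point down. Eno3 was among the 8 lowest ratios of the 1216 and Pgam2 among the 44 lowest (3.62%). Pgam1 and Eno1 were among the 75 and the 82 highest (6.17% and 6.74%). The median log2 ratio over the 7 genes was -0.14, the value of Hk2, with 5 ratios below 1 and 2 above.

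**Figure D2:**
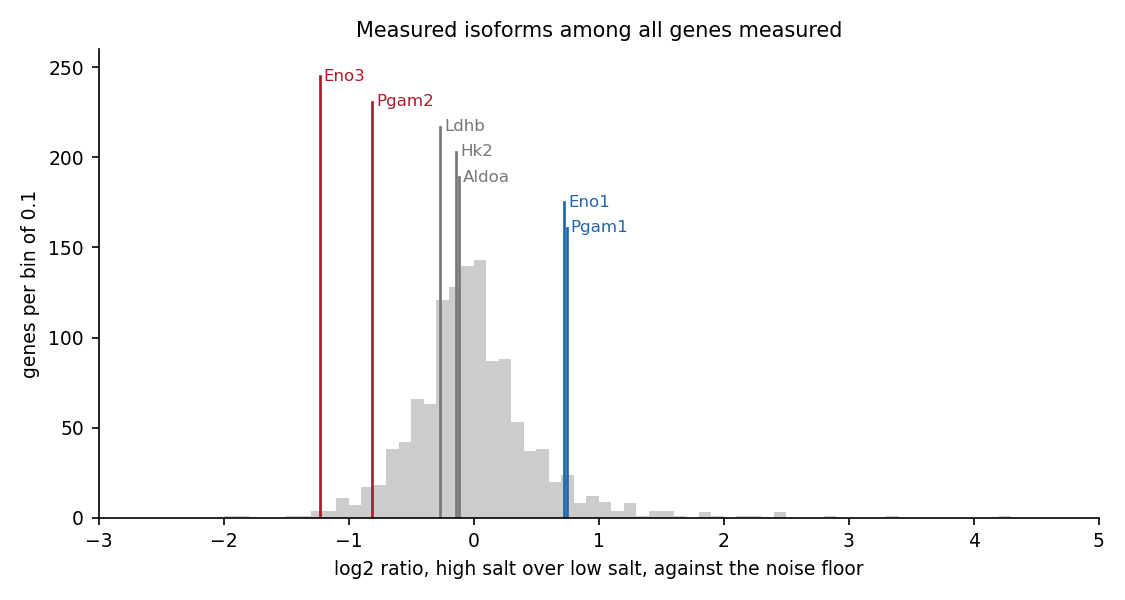
Number of genes per bin of 0.1 in the log2 ratio, high salt over low salt, as grey bars for all 1216 genes measured, with a line at the value of each of the 7 measured isoforms in its brightest probe set. Eno3 at -1.23 and Pgam2 at -0.81 (red) lie in the left flank, Eno1 at 0.73 and Pgam1 at 0.74 (blue) in the right flank, and Ldhb, Hk2 and Aldoa (grey) near the middle; line heights carry no value.

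Within an enzyme, the difference between the log2 ratios of the 2 isoforms gives the change in their balance without setting one probe set's level against another's. For Pgam2 against Pgam1 it was -1.55, so the muscle isoform was at least 2.93-fold lower relative to the widespread one in the high-salt heart than in the low-salt heart. For Eno3 against Eno1 it was -1.95, at least 3.88-fold. Both exceeded the SD of 0.31 that the spread among probe sets gives for such a difference. That SD was taken from probe sets at or above the noise floor on both arrays. Pgam2 and Eno3 were not, so it does not measure the spread of these 2 bounds. Beyond these 2 enzymes, 8 further pairs of a muscle isoform and another isoform were measured, from a list drawn up with earlier results of these arrays known. In 7 of these 8 the muscle isoform was also lower relative to its partner, and in 8 of all 10 pairs the muscle isoform had a ratio below 1 and its partner a ratio above 1. In 4 of these 8, 1 isoform was under the noise floor on 1 array, so its direction was fixed by entering the measured set: Pgam2 and Eno3 could only read lower, and Pfkl and Slc2a1 only higher. The other 4, of hexokinase, creatine kinase, Cox8b and Slc25a4, had both isoforms above the floor on both arrays. With 1 array per diet and several ratios inside the SD, these counts are a description.

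Among glucose-handling proteins, the insulin-responsive transporter Slc2a4 read 288.3 under high salt and 483.0 under low salt, while the widespread transporter Slc2a1 read 247.1 under high salt and 101.7 under low salt. The difference of their log2 ratios was -1.71 as a bound, although the dimmer Slc2a4 probe set went the other way at 148.1 under high salt and 93.7 under low salt. Phosphofructokinase, which commits sugar to glycolysis, had its muscle form Pfkm at 645.0 under high salt and 1218.6 under low salt, 1.89-fold lower, and its liver form Pfkl at 196.8 under high salt and 125.6 under low salt, at least 1.56-fold higher (difference -1.56). For hexokinase, the difference of Hk2 against Hk1 was -0.68. The widespread Hk1 read 526.4 under high salt and 362.2 under low salt in its brightest probe set, but a second probe set read 97.6 under high salt and 146.0 under low salt. The high-salt reading of this second probe set lay under the noise floor, so its ratio could only point down. With it the difference turned to 0.069 or more. Of the 3 control probe sets annotated as Hk1, 2 were under the noise floor on both arrays and so not measured, and the other read 167.7 under high salt and 101.7 under low salt, at least 1.33-fold higher. Its low-salt reading lay under the floor, so its ratio could only point up. With the brightest probe sets, the exception was glycogen phosphorylase, which releases glucose from glycogen. Both its muscle form Pygm, at 829.6 under high salt and 1244.1 under low salt, and its brain form Pygb, at 508.4 under high salt and 891.3 under low salt, were lower in the high-salt heart (difference 0.23, within the SD). With the dimmest probe sets above the floor on at least 1 array, this difference turned to -0.53, as M27726_at of Pygb read 101.2 under high salt and 146.4 under low salt. That high-salt reading lay under the noise floor, so the Pygb ratio is a bound. The value -0.53 is therefore the lowest that the difference could be, and its direction is not settled.

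Pairs outside glucose metabolism had differences from -0.72 to -0.05. Creatine kinase, which buffers ATP, had a difference of -0.72, with the muscle form Ckm at 3062.3 under high salt and 4279.7 under low salt and the brain form Ckb at 759.3 under high salt and 644.0 under low salt. A further 2 pairs were of cytochrome c oxidase subunits. Cox8b against Cox8a had a difference of -0.56 in the brightest probe sets but of -0.01 in the dimmest, where rc_AI102505_at of Cox8a read 602.0 under high salt and 844.2 under low salt. Cox6a2 against Cox6a1 had a difference of -0.05, within the SD. For the mitochondrial ADP/ATP carriers Slc25a4 against Slc25a5 it was -0.51.

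**Figure D3:**
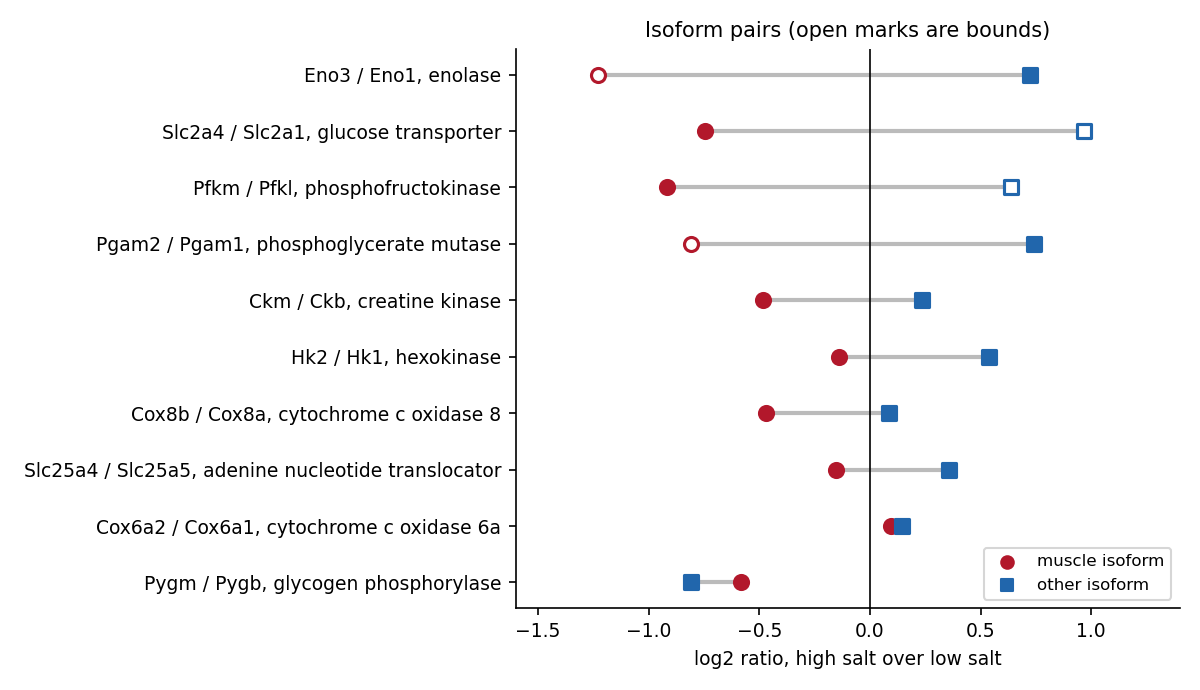
Log2 ratio (high salt over low salt) of the muscle isoform (red circle) and of the other isoform (blue square) in the brightest probe set of each, for the 10 pairs measured, ordered by the difference; open marks are bounds because 1 reading lay under the noise floor. The red circle lies left of the blue square in 9 pairs, most widely for Eno3 and Eno1, and right of it for Pygm and Pygb.

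The rest of the pathway did not move as a block. Of 18 other glycolytic enzyme genes listed, 8 had a probe set and 6 were measured. None passed 2-fold, and at 1.5-fold 2 were higher (Pfkl and Pfkp) and 1 lower (Pfkm). Among all measured genes 9.29% were higher and 9.46% lower at 1.5-fold. Pfkl and Pfkp lay under the noise floor in the low-salt heart, so their ratios could only point up. The platelet form of phosphofructokinase, Pfkp, read 240.1 under high salt and 44.1 under low salt, at least 1.90-fold higher. Its other probe set, L25387_at, was under the floor on both arrays, at 69.9 under high salt and 35.7 under low salt. Pgk1 and Pkm, which act in the middle and at the end of the pathway, differed by less than the SD among probe sets. Pgk1, phosphoglycerate kinase, read 1547.1 under high salt and 1556.9 under low salt. Pkm, a pyruvate kinase, read 1560.2 under high salt and 1495.0 under low salt. Gapdh was read by control probe sets, whose high-salt over low-salt ratios were 1.03 at the 3′ end, 0.93 in the middle and 0.97 at the 5′ end of the transcript. The mutase and enolase act between Pgk1 and Pkm in the pathway.

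Transport and pyruvate entry were followed in the same way. Among all measured genes 9.29% were higher and 9.46% lower at 1.5-fold, and 3.54% higher and 1.89% lower at 2-fold. Of 8 glucose and lactate transporter genes, 3 were measured, and at 1.5-fold 2 were higher and 1 lower. The lactate and pyruvate carrier Slc16a1 was the third of these beside Slc2a1 and Slc2a4, at 1074.2 under high salt and 573.8 under low salt, 1.87-fold higher. Of 14 pyruvate entry genes, 7 were measured; 1 was lower at 2-fold and 2 at 1.5-fold, and none was higher. They were the pyruvate dehydrogenase kinases Pdk4, at 85.6 under high salt and 307.3 under low salt (at least 2.43-fold lower), and Pdk2, at 538.0 under high salt and 829.4 under low salt (1.54-fold lower). Pdk4 lay under the noise floor in the high-salt heart, so its ratio could only point down. Of 15 glycogen genes, 5 were measured; Gyg1, which primes glycogen, was 1.97-fold higher at 772.3 under high salt and 392.7 under low salt, and Pygb was lower at 1.5-fold. Of 9 genes that control glycolysis, 2 were measured and neither passed 1.5-fold. Of 15 listed targets and factors of the hypoxia response, 3 were measured (Egln3, P4ha1 and Vegfa), none past 1.5-fold. That list held none of the glycolytic or transporter genes measured here.

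**Figure D4:**
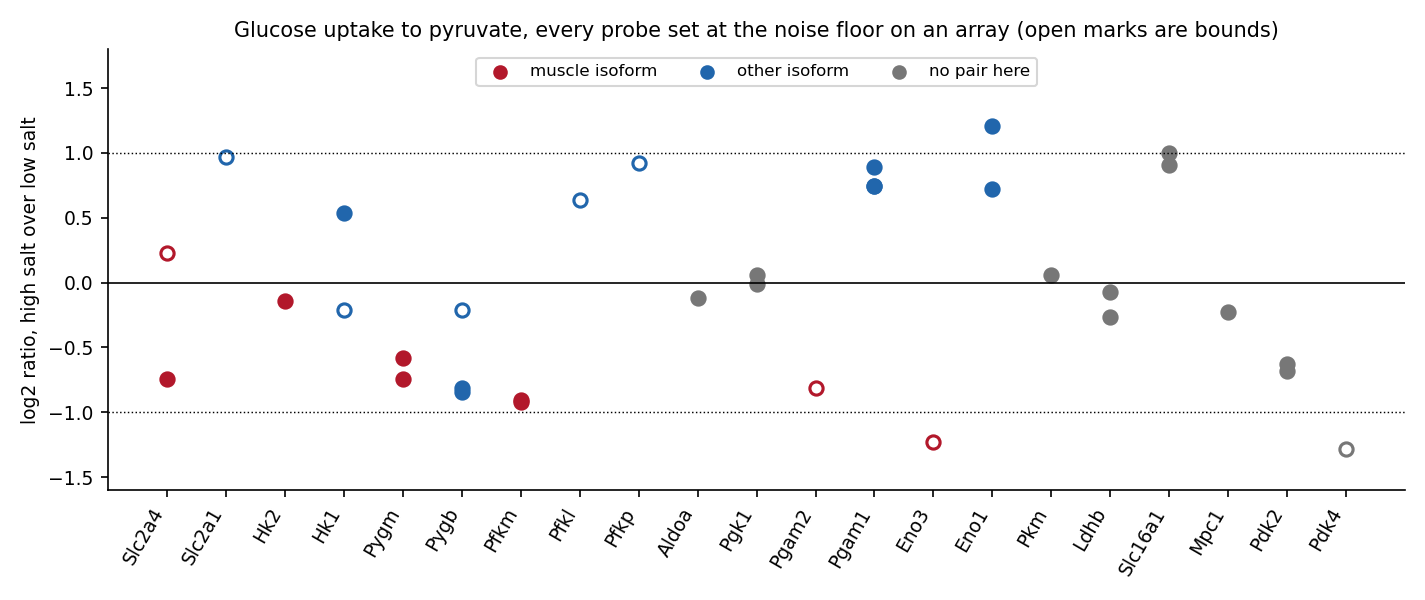
Log2 ratio (high salt over low salt) for every probe set of chosen genes that reached the noise floor on at least 1 array. Genes are in pathway order from glucose uptake to pyruvate and its entry into mitochondria. Some measured genes, such as Pdha1, Pdhb, Dlat, Pdk1, Gyg1 and Pgm1, are not drawn. Open marks are bounds and dotted lines mark 2-fold. The probe sets of Pgam1 and Eno1 lie between 0.73 and 1.21, those of Pgam2 and Eno3 at -0.81 and -1.23, and those of Pgk1 and Pkm near 0.

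Markers of the tissue and of other cells were read on the same arrays. Cardiomyocyte genes were bright, with Tnnt2 at 5576.1 under high salt and 6017.5 under low salt and Actc1 at 8364.9 under high salt and 7848.9 under low salt. Of 7 measured cardiomyocyte markers, the natriuretic peptide gene Nppa passed 2-fold in its brightest probe set, at 5997.7 under high salt and 833.4 under low salt, and none of the others passed 1.5-fold, although a dimmer Myh6 probe set was 1.92-fold lower. Of 8 skeletal muscle markers with a probe set, only Myh1 reached the noise floor, the list summed to 427.7 under high salt and 551.0 under low salt, and Myh2 and Tnni2 were at or below 0 on both arrays. No neuron marker of 9 reached the floor. All 4 measured red blood cell markers of 6 listed passed 2-fold upward, against 3.54% of all measured genes. Their list summed to 8691.8 under high salt and 3287.7 under low salt. The 4 were the haem synthesis gene Alas2, at 698.0 under high salt and 104.5 under low salt, the globin genes Hba-a3, at 746.9 under high salt and 152.9 under low salt, and Hbb, at 6982.3 under high salt and 2910.5 under low salt, and the anion exchanger Slc4a1, at 264.6 under high salt and 119.8 under low salt. Alas2 and this Slc4a1 probe set lay under the noise floor in the low-salt heart, so their ratios could only point up. A dimmer Slc4a1 probe set read 168.3 under high salt and 174.8 under low salt. Leukocyte markers moved both ways: of 2 measured, Lyz2, lysozyme of myeloid cells, read 458.6 under high salt and 130.4 under low salt, and Cd74, which antigen-presenting cells use to assemble MHC class II, 507.3 under high salt and 1144.4 under low salt. The leukocyte list summed to 1057.6 under high salt and 1305.6 under low salt, and the pan-leukocyte gene Ptprc was under the floor on both arrays. Of 5 fibroblast markers measured, in their brightest probe sets, Col1a2 was 1.51-fold and Col1a1 1.42-fold higher, Col3a1, Dcn and Pdgfra were within the SD of 0.22, and the list summed to 3536.2 under high salt and 3234.4 under low salt. The smooth muscle list summed to 434.6 under high salt and 375.7 under low salt, with Acta2 alone measured, and no endothelial marker of 3 reached the floor. Red cells, leukocytes and fibroblasts all contain widespread isoforms. The part of each in the Pgam1 and Eno1 readings was not tested. In the GRCr8 gene table, 13 symbols name pseudogenes of Pgam1, 31 of Eno1, 30 of Ldha, 9 of Aldoa and 1 of Ldhb, and none of Pgam2, Eno3, Aldoc or Hk2. Whether the probe sets of the widespread isoforms also read such copies was not tested.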

How the data were processed

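RNA was copied into biotin-labelled cRNA by in vitro transcription, per the labels' protocols. The authors deposited 1 linear intensity per probe set and array; no source used here gives the software or its settings. The arrays were already at a common level and were not rescaled. Gene symbols come from a platform annotation dated 2016: of 8740 without controls, 7006 had 1 symbol, 308 several and 1426 none. For a gene with several probe sets the brightest gave the ratio. The number of arrays, 1 per diet, limits the precision.

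The isoforms, gene lists, pairs and noise floor were chosen with earlier results of these data known. Named were all probe sets of the isoforms and, from each other list, genes past 2-fold, isoform pairs and up to 3 bright genes; genes past 1.5-fold were named after their values were seen. Ratio and count steps were tested on simulated data. The genes changed there read far above the noise floor under low salt, unlike Pgam2 and Eno3, so that test does not cover their bounds. Alternatives were 4 other treatments of the floor, median, quantile and loess (span 0.4) scaling, 2 other rules for several probe sets, leaving out probe set types that may share sequence, and thresholds of 1.5-fold and 3-fold. Sequences came from RefSeq (GRCr8) by symbol, and all 10 genes matched. Computing used matplotlib 3.10.9, statsmodels 0.14.6, scipy 1.17.1, pandas 2.3.3, numpy 2.4.6 and Python 3.11.15.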

Additional observations from a re-analysis of the deposited data

How the results depend on the processing

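The directions of Pgam1, Pgam2, Eno1 and Eno3 held under each alternative that gave them a ratio. Pgam2 and Eno3 had 1 probe set each, so the rules on probe sets could not change their ratios. Wherever their high-salt reading lay under the floor, their ratios could only point down. All their readings lay above the floor of 10.9, where Pgam2 had a log2 ratio of -1.52 and Eno3 of -1.24. With no floor these were -1.51 and -1.23. Median, quantile and loess scaling changed none of the counts of isoforms at 2-fold, and the median log2 ratio of all genes ran from -0.09 to 0 over all settings. With the floor at the 40th percentile of all values (10.9), at the 90th percentile of the size of negative values (84.9) or absent, and at a threshold of 1.5-fold, the count of isoforms lower in the high-salt heart was 2. It was 0 with the floor at the 99th percentile (271.2), where Eno3 had a log2 ratio of -0.13 and Pgam2 was not measured, and 0 at 3-fold. The count of higher isoforms was 2 at 1.5-fold, and 1 with the dimmest probe set of each gene or without probe set types that may share sequence, since X02610_at then stood for Eno1. The difference of Pgam2 against Pgam1 was -2.26 at the 40th percentile, -2.13 at the 90th percentile and -2.25 with no floor. The difference of Eno3 against Eno1 was -0.85 at the 99th percentile floor, and -2.44 with the dimmest probe set and without shared probe set types. Pairs with the muscle isoform lower, 9 of 10, were 5 of 6 at the 99th percentile floor and 5 of 6 without shared probe set types, as fewer pairs were measured. With the dimmest probe sets it was again 9 of 10, but with another exception: Hk2 against Hk1 turned to 0.069 and Pygm against Pygb to -0.53, and Cox8b against Cox8a was -0.01. The values 0.069 and -0.53 are lower limits, since the Hk1 and Pygb probe sets lay under the noise floor in the high-salt heart. The direction for Pygm against Pygb is therefore not settled under that rule. Aldoc reached the 40th percentile floor, where Aldoa against Aldoc was -0.024, and with no floor it was -0.025, which made 10 of 11 pairs; under each other setting Aldoc was not measured. Ldhb against Ldha could not be given, since Ldha had no probe set of its own. No paired analysis was possible because each diet had 1 array.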
